A study of Rattus norvegicus with 6 samples.

Results

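ABC efflux transporters are membrane pumps that use ATP to move drugs, toxins and their conjugates out of cells. The members described here are 10 rat genes: the multidrug resistance proteins Abcc1 to Abcc6, the P-glycoproteins Abcb1a and Abcb1b, the phospholipid transporter Abcb4 and the breast cancer resistance protein Abcg2. They were found as array probes, other than control spots, whose accession is a RefSeq transcript of 1 of these genes. All 10 had a probe, out of 15284 genes with one, and together they had 22 of 61657 probes. The samples were renal cortex, the outer layer of the kidney with the glomeruli and proximal tubules, from male Sprague-Dawley rats bought at 5 weeks of age and kept on a basal diet. In the first group, 3 rats received corn oil for 4 weeks. In the second, 3 rats received 1-amino-2,4-dibromoanthraquinone (ADBAQ), a brominated anthraquinone used in making dyes, at 1000 mg/kg/day for 4 weeks. Each rat gave 1 RNA sample, hybridised alone to a 1-colour Agilent array, and the question was which transcripts differ after the compound.

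In the kidney, organic anions and cations enter proximal tubule cells from the blood through uptake carriers, are often conjugated inside the cell, and leave into the urine across the brush border. Abcc2, Abcc4, Abcb1a, Abcb1b and Abcg2 are known as pumps of that apical side, while Abcc1 and Abcc3 are known to face the blood. Several of these genes are known targets of the regulator Nrf2, and some also of the aryl hydrocarbon receptor or of the xenobiotic receptors PXR and CAR.

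Of the 10 genes, 1 rose after ADBAQ: Abcc4, by 1.36 ± 0.12 (SE, n = 3 per group) on the log2 scale, or 2.56-fold (adjusted p = 0.016, limma with Benjamini-Hochberg adjustment over 12007 genes). None fell by that test, in which 2 members had an unadjusted p under 0.05 and a lower value. Over all genes tested, 0.225% were called higher and 0.0666% lower, 0.291% in all. In total, 9 of the 10 members passed the filter on dim probes and were tested, and 5 of these 9 had an unadjusted p under 0.05, against 19.4% of all genes. The 3 ADBAQ arrays lay above the 3 corn oil arrays without overlap for Abcc2, Abcc3 and Abcc4, where 12.7% of all genes did so, and below them for Abcc5, Abcc6 and Abcb1a, where 14.8% did. That made 6 of 9, against 27.6% of all genes. Differences over the 9 ran from -1.42 to 1.36 with a median of -0.17, and the median of all genes was -0.011. Abcb1a was tested only because its probe was well above background in the corn oil group, which favours a lower value after ADBAQ. Without it, a setting added after the values were seen, 5 of 8 members did not overlap, 4 of 8 had an unadjusted p under 0.05, and differences ran from -0.52 to 1.36 with a median of -0.079. With 3 arrays against 3, the smallest two-sided p of an exact permutation test is 0.1, and Abcc4, Abcc2, Abcc3, Abcc5, Abcc6 and Abcb1a each had an exact permutation p of 0.1.

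**Figure D1:**
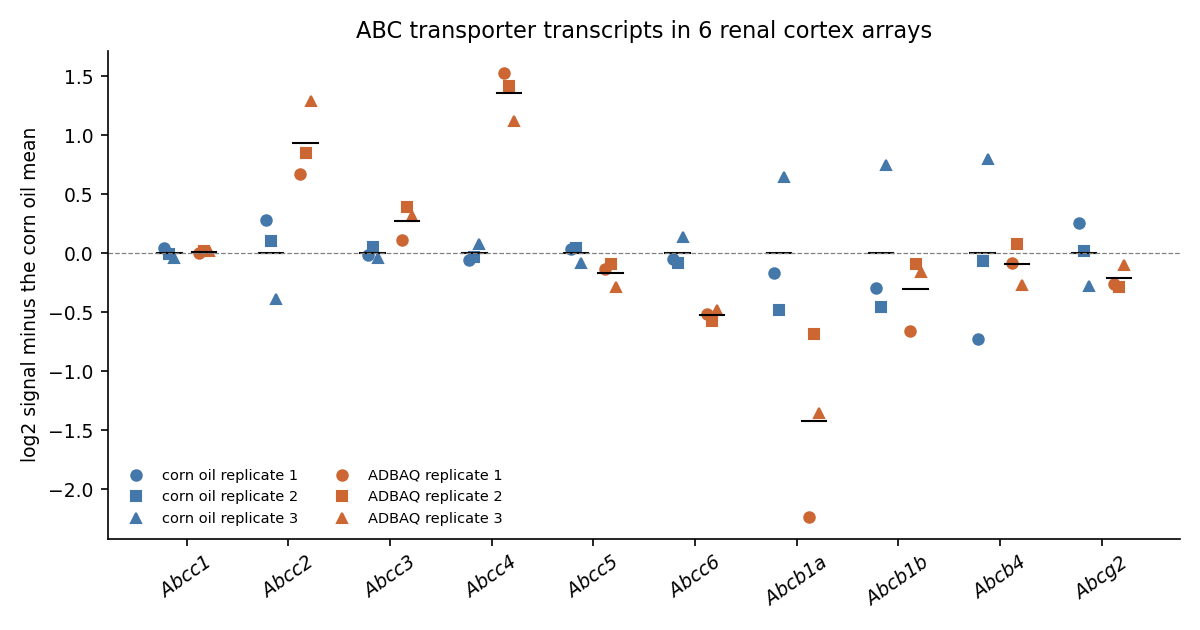
Log2 signal of each of the 10 transporter transcripts on the 6 arrays, as the difference from the mean of the corn oil arrays of the same probe. Blue marks are corn oil arrays, orange marks are ADBAQ arrays, shapes give the replicate number and bars the group means. Abcc4 and Abcc2 stand above 0 on all 3 ADBAQ arrays, Abcc6 stands below, and corn oil replicate 3 is high for Abcb1a, Abcb1b and Abcb4.

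All corn oil arrays were on slide 1 and scan 1 and all ADBAQ arrays on slide 2 and scan 2, so that an effect of slide or scan and one of ADBAQ cannot be told apart. The 75th percentile of the signal was 1126 to 1177 for corn oil and 1279 to 1307 for ADBAQ, and 69.0% to 72.3% of all probes on an array exceeded background clearly, by the scanner software's flag. All 10 proximal tubule markers were measured. Their summed signal was 2117 to 2139 in corn oil and 1898 to 1967 after ADBAQ. Lower without overlap were 5 of 10, against 14.8% of all genes. Differences were below 0 for 7 of 10, and for 4 of 10 without scaling between arrays. For podocytes, the 5 markers summed to 30.9 to 35.9 and 31.1 to 35.1, and for endothelium the 12 tested of 13 summed to 89.5 to 96.5 and 81.9 to 102.1. For leukocytes, the 9 tested of 10 markers summed to 139 to 155 in corn oil and 143 to 147 after ADBAQ, a sum carried by Lyz2 and Cd74. Cd52 and Itgam were higher on every ADBAQ array, with differences of 1.40 and 1.27 (adjusted p = 0.064 and 0.16, limma). Itgam was well above background on 1 of 3 corn oil arrays and 3 of 3 ADBAQ arrays, so it was tested through ADBAQ alone, which favours a higher value. Its difference was 0.22 with normexp background correction. Of the 9 leukocyte markers 3 had negative values, among them Cd3e at -0.78 and Cd74 at -0.38. The 2 tested of 3 medulla markers summed to 0.407 to 0.635 and 0.807 to 0.928, both higher without overlap, and the 2 tested of 5 adrenal markers to 2.22 to 2.46 and 2.73 to 2.83. The adrenal sum is mostly Th, at 0.27, while Cyp21a1 overlapped between groups at -0.060. Red cell markers moved with the treatment: all 7 tested of 10 were higher on every ADBAQ array. Their sum was 161 to 177 in corn oil and 321 to 372 after ADBAQ. Of all genes, 12.7% were higher without overlap. Among the red cell markers not tested, Rhag was too dim and Tspo2 had no matched probe. In such bulk tissue, fewer cells of a type and less RNA per cell cannot be told apart. The part of red cells, and of the leukocyte, medulla, Th and proximal tubule markers that moved, in the values below was not tested.

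The 250 bases before the annotated start are shown for the gene that rose, Abcc4, for Abcc2, which had the next largest positive value, and for Abcg2, another apical pump, whose groups overlapped. They are from RefSeq, assembly GRCr8, read 5′ to 3′ on the strand of the gene. The regions are chr15:102181365-102181614 on the minus strand, chr1:252613625-252613874 on the plus strand and chr4:89075224-89075473 on the plus strand. Capitals mark the core GCGTG, known from sites of the aryl hydrocarbon receptor, on either strand, so that CACGC is the same core on the other strand.
Abcc4: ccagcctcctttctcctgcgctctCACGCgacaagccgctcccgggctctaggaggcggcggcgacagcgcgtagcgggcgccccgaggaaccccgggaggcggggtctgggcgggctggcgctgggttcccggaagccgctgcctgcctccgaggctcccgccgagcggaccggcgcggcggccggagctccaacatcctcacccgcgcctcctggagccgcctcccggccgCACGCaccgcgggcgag
Abcc2: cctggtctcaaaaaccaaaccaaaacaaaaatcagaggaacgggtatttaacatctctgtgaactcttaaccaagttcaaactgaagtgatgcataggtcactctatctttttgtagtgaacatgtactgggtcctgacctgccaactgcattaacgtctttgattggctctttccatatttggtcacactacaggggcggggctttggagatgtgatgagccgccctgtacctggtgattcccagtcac
Abcg2: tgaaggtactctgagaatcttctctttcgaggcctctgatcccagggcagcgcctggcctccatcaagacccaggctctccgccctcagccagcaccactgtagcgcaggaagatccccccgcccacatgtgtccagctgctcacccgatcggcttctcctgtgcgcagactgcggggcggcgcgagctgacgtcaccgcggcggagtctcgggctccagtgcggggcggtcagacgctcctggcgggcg
The Abcc4 window held 2 such cores, which begin 226 and 17 bases before the start, and the other windows held 0. Among 33469 rat promoter windows of the same length, 25.9% held the core, and 3 of the 8 members with a window did (Abcc1, Abcc4 and Abcb4). The core TGACNNNGC, known from antioxidant response elements and searched on both strands with no overlap with the other core in these windows, was in 0 of the 8 and in 10.1% of all windows. The starts used for Abcc4, Abcg2 and Abcb1a lie inside the annotated span of their genes, so other transcripts begin further upstream. Abcc3 and Abcc5 had no window.

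Signals below are multiples of the 75th percentile of the same array, so that 1 is the level of a probe brighter than most. They serve to compare arrays at 1 probe, not probes with each other. Probes of a gene are numbered from the brightest in corn oil, and probe 1 stands for the gene.

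Abcc4, also called MRP4, pumps organic anions, cyclic nucleotides and urate across the apical membrane of proximal tubule cells. At probe 1 the corn oil arrays read 5.21, 5.31 and 5.73 and the ADBAQ arrays 15.6, 14.4 and 11.8. At probe 2 they read 2.43, 2.28 and 2.52 against 7.25, 6.26 and 5.13. At probe 3 they read 1.16, 1.14 and 1.19 against 4.07, 3.60 and 2.91. At probe 4 they read 0.362, 0.403 and 0.412 against 1.097, 1.25 and 0.878. ADBAQ arrays were thus far above every corn oil array at each probe, the lowest of them was ADBAQ replicate 3 at all 4, and the corn oil arrays lay within 1.04-fold to 1.14-fold of each other. The differences were 1.36, 1.35, 1.59 and 1.44 on the log2 scale, or 2.55-fold to 3.00-fold. In the fit over 42256 probes, of which 0.248% were called, all 4 passed (adjusted p = 0.018 to 0.033, limma), and they were the only called probes among the 21 tested probes of the members. Without overlap between groups were 10 of the 21, against 27% of all probes.

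Abcc4 passed narrowly at this number of arrays. With corn oil replicate 1 left out its adjusted p (limma) was 0.077 and its difference 1.33, with replicate 2 of that group left out 0.089 and 1.34, and with replicate 3 of that group left out 0.058 and 1.40. Leaving out ADBAQ replicate 2 gave 0.094 and 1.33. It was 0.050 and 0.034 without ADBAQ replicates 1 and 3, with differences of 1.27 and 1.47. The count of Abcc4 probes past the threshold was 0 without corn oil replicate 1, 2 or 3 or ADBAQ replicate 1 or 2, and 4 without ADBAQ replicate 3.

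The genes whose values were most like those of Abcc4 were ranked by the root mean square difference over the 6 arrays, after subtracting each gene's corn oil mean of log2 signals, among 11679 named genes above background on all 6 arrays. The nearest 3 were Cpeb1, which binds messenger RNA (0.12), Pir, an iron-binding nuclear protein (0.18), and Dusp13b, a phosphatase (0.19). Cpeb1 read 0.104, 0.0898 and 0.119 in corn oil and 0.323, 0.304 and 0.245 after ADBAQ, and like Abcc4 it was lowest of the ADBAQ arrays in replicate 3. Pir read 0.738, 0.796 and 0.853 against 2.57, 2.21 and 2.27. Cpeb1 and Pir passed the test over all genes (adjusted p = 0.028 and 0.0065, limma), and Dusp13b did not (1.46 ± 0.20 SE, adjusted p = 0.060).

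**Figure D2:**
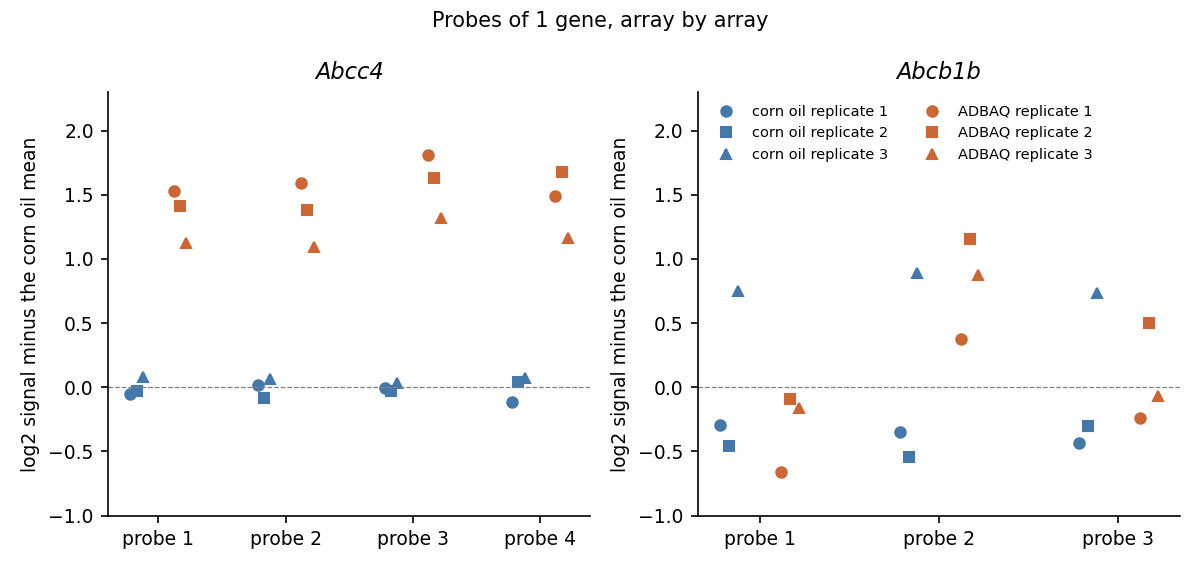
Log2 signal at each probe of Abcc4 and of Abcb1b on the 6 arrays, as the difference from the corn oil mean of the same probe. Blue marks are corn oil arrays, orange marks ADBAQ arrays, and shapes give the replicate number. At all 4 Abcc4 probes the ADBAQ arrays lie above the corn oil arrays, by 1.35 to 1.59, while at the 3 Abcb1b probes the groups overlap and corn oil replicate 3 is above the other corn oil arrays.

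Abcc2, or MRP2, exports glutathione and glucuronide conjugates across the apical membrane and had 1 probe. Its signal was 4.53, 4.00 and 2.84 in corn oil and 5.93, 6.70 and 9.11 after ADBAQ. Every ADBAQ array was above every corn oil array, with a 1.60-fold spread within corn oil and a 1.54-fold spread within ADBAQ. The difference was 0.94 ± 0.23 (SE, n = 3 per group; 1.91-fold), with a 95% interval of 0.37 to 1.504, and it did not pass over all genes (adjusted p = 0.14, limma). Without scaling between arrays the adjusted p was 0.046. That setting moved the median of all genes to 0.15 and called 1027 genes higher, against 27 with scaling.

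Abcc3, or MRP3, a basolateral pump for glucuronides and bile acids, had 3 probes with small positive values. Probe 1 read 0.299, 0.315 and 0.296 in corn oil and 0.327, 0.397 and 0.376 after ADBAQ, so that ADBAQ replicate 1 lay close to the corn oil arrays. Its difference was 0.27 ± 0.088 (SE, n = 3 per group; 95% interval 0.056 to 0.49; adjusted p = 0.19, limma). Probes 2 and 3 had differences of 0.13 and 0.30, and groups overlapped at probe 2. Without scaling the value for the gene was 0.43 (adjusted p = 0.044, limma), in the setting where the median of all genes was 0.15 and 1027 genes were called higher.

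Abcc1, or MRP1, which exports glutathione conjugates and leukotriene C4, had the narrowest interval of the members. Probe 1 read 1.60, 1.54 and 1.499 in corn oil and 1.54, 1.56 and 1.57 after ADBAQ, and the groups overlapped at all 4 probes. The difference was 0.013 ± 0.054 (SE, n = 3 per group), and its 95% interval of -0.12 to 0.15 leaves out a change of the size seen for Abcc4. Without scaling it was 0.18 (unadjusted p = 0.028, adjusted p = 0.11, limma), above that interval, where the median of all genes was 0.15. Its sign has no weight, since it was -0.0093 without corn oil replicate 3.

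Abcc5, or MRP5, a pump for cyclic nucleotides and their analogues, read 1.45, 1.46 and 1.34 in corn oil and 1.29, 1.33 and 1.16 after ADBAQ at probe 1. The groups just failed to overlap there, with a difference of -0.17 ± 0.077 (SE, n = 3 per group; adjusted p = 0.29, limma), and it was -0.0077 without scaling. At probe 2 they overlapped, with a difference of 0.024.

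Abcc6, or MRP6, is known for releasing ATP from cells, and its loss causes ectopic calcification. Its 1 probe read 2.05, 2.01 and 2.34 in corn oil and 1.49, 1.43 and 1.52 after ADBAQ. All ADBAQ arrays were lower than all corn oil arrays, with a 1.07-fold spread among them. The difference was -0.52 ± 0.078 (SE, n = 3 per group; 95% interval -0.72 to -0.33), and the adjusted p was 0.070 (limma). This crossed the threshold in 3 of 16 other settings. They were normexp background correction (adjusted p = 0.042), variances fitted robustly along an intensity trend (0.038) and unscaled arrays (0.039, difference -0.36). Leaving out any 1 array gave an adjusted p of 0.13 to 0.23 (limma) and differences of -0.57 to -0.46. The adjusted p was 0.14 without the filter on dim probes, and 0.16 when arrays of the same number formed blocks. The differences of the 10 proximal tubule markers ran from -0.44 (Aqp1) to 0.32 (Gatm) with a median of -0.11, and their part in the value of Abcc6 was not tested.

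**Figure D3:**
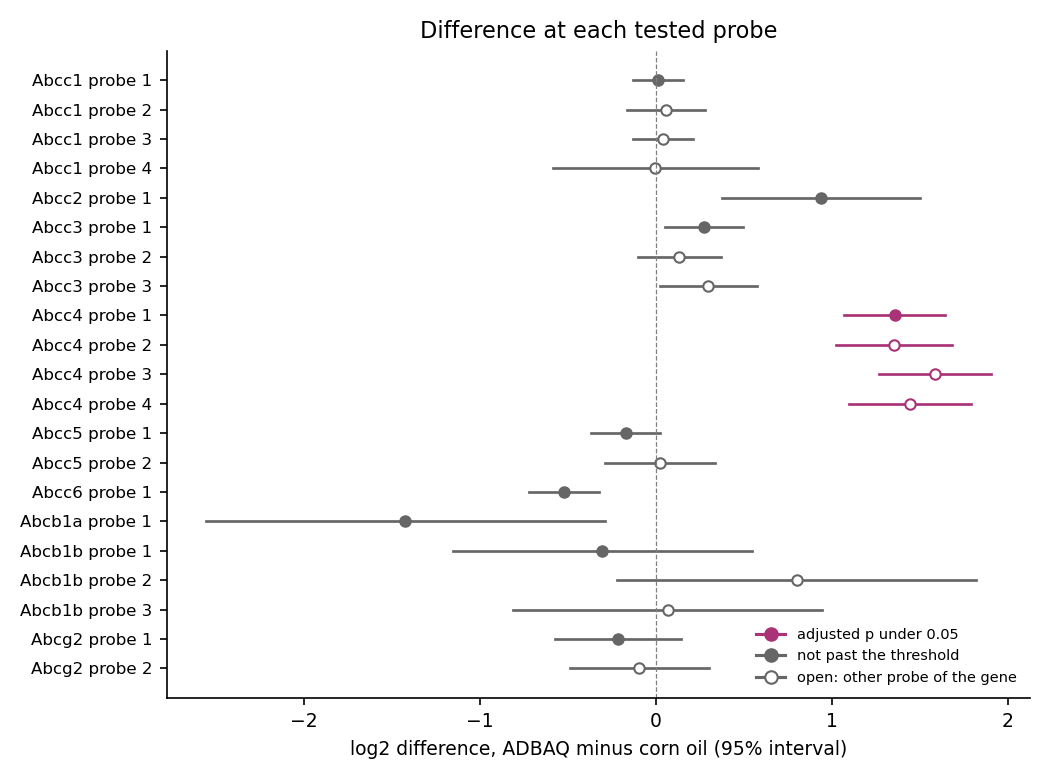
Log2 difference, ADBAQ minus corn oil, with its 95% interval from limma at each of the 21 tested probes of the members. Purple marks have an adjusted p under 0.05 over all probes, filled marks are the probes that stand for a gene and open marks are its other probes. The 4 Abcc4 probes lie at 1.35 to 1.59, Abcc2 at 0.94 and Abcc6 at -0.52, and the intervals of the Abcb1a and Abcb1b probes are wide.

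P-glycoprotein, which expels hydrophobic and cationic drugs, is encoded in rats by the neighbouring genes Abcb1a and Abcb1b. Abcb4, a transporter of phosphatidylcholine best known from bile, lies next to Abcb1b. These close copies could share hybridisation, and probe sequences were not used here, so which copy a probe reads is uncertain. Abcb1a was dim: it was well above background on 3 of 3 corn oil arrays and 1 of 3 ADBAQ arrays. Its signals were 0.0322, 0.0258 and 0.0566 in corn oil and 0.00768, 0.0225 and 0.0141 after ADBAQ. The groups did not overlap, but ADBAQ replicate 2 lay close to corn oil replicate 2. The fitted difference was -1.42 ± 0.47 (SE, n = 3 per group; adjusted p = 0.19, limma), but it rests on 1 ADBAQ array above background and on a filter that the probe passed through corn oil alone. It was -0.48 with normexp background correction, so its size is not settled.

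Abcb1b gave different pictures at its probes. At probe 1 it read 0.397, 0.354 and 0.817 in corn oil and 0.307, 0.456 and 0.435 after ADBAQ, with a difference of -0.30 ± 0.35 (SE, n = 3 per group; adjusted p = 0.66, limma). At probe 2 it read 0.131, 0.114 and 0.309 against 0.215, 0.370 and 0.305, with a difference of 0.80 ± 0.42 (adjusted p = 0.36 over all probes). At probe 3 the difference was 0.067 ± 0.36. Groups overlapped at all 3 probes, and the corn oil arrays spanned 2.31-fold, 2.71-fold and 2.25-fold. The sign for the gene turned to 0.19 with the mean of its probes and to 0.071 without corn oil replicate 3. The ratio of probe 1 to probe 2 within an array takes out much of this spread. It was 3.04, 3.10 and 2.65 in corn oil and 1.43, 1.23 and 1.43 after ADBAQ. The log2 ratio was different by -1.104 after ADBAQ, with no overlap (exact permutation p = 0.1, the smallest possible, and 0.33 after adjustment over the 20 pairs of probes compared in 6 genes). The ratio of probe 2 to probe 3 did not overlap either, with a difference of 0.73, and that of probe 1 to probe 3 did. In all, 6 of the 20 pairs were without overlap, the others being in Abcc3, Abcc4 and Abcg2. For probes 1 and 3 of Abcc4 the difference was -0.23. The share over probe pairs of all genes was not computed, and for single probes it was 27%. Pairs of 1 gene share probes, so the 20 are not independent, and no conclusion is drawn from their count.

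Abcb4 read 0.0149, 0.0235 and 0.0429 in corn oil and 0.0233, 0.0261 and 0.0205 after ADBAQ. It was well above background on 2 of 3 arrays of each group and so was not tested, and the groups overlapped. Without the filter on dim probes its difference was -0.090 ± 0.39 (SE, n = 3 per group).

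Abcg2, or BCRP, which exports sulfate conjugates and urate across the apical membrane, read 16.3, 13.9 and 11.2 in corn oil and 11.4, 11.2 and 12.8 after ADBAQ at probe 1. At probe 2 it read 13.1, 10.97 and 8.57 against 9.88, 9.55 and 10.8. Groups overlapped at both probes, and the ADBAQ arrays spanned less (1.14-fold and 1.13-fold) than the corn oil arrays (1.45-fold and 1.53-fold). The difference was -0.21 ± 0.15 (SE, n = 3 per group), with a 95% interval of -0.57 to 0.14 that leaves out a rise of the size of that of Abcc4 (adjusted p = 0.46, limma). It was -0.050 without scaling and -0.067 with normexp background correction.

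Within the corn oil group, the rat of replicate 3 stood apart in some of these transporters. Its signal over the mean of replicates 1 and 2 was 1.95 to 2.52 at the 5 probes of Abcb1a, Abcb1b and Abcb4, a ratio that 1.27% of all genes tested reached. At the 3 probes of Abcc2 and Abcg2 it was 0.666 to 0.746, and 5.46% of all genes were as low. The array and these genes were picked after their values were seen, so the shares of all genes are no test. The probes of Abcb1a and Abcb4 and probe 3 of Abcb1b were dim, with corn oil means of 0.038, 0.027 and 0.044. For Abcc4 the ratio was 1.03 to 1.09, and for Abcc3, Abcc5 and Abcc6 it was 0.92 to 1.18. For Abcc1 it was 0.91 to 0.96 at probes 1 to 3, and 1.65 at probe 4, which was dim. The summed thick limb and distal tubule markers were 1.298 times as high in this array, those of liver 1.54 times and those of medulla 0.688 times. The sums of the other lists were 0.889 to 1.06 times as high. The thick limb and distal sum is mostly Umod, and among the corn oil arrays Slc12a3 and Calb1 were lowest in replicate 3. For medulla, Aqp4 was lowest in replicate 3 and Slc14a2 was highest. For liver, all tested markers but Alb were highest there. Without corn oil replicate 3, the difference of Abcc2 was 0.74, that of Abcg2 was -0.35 and that of Abcb1a was -1.0996. Without corn oil replicate 1, that of Abcg2 was -0.085.

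The rest of the ABC family, which includes lipid, peptide and peroxisomal transporters, showed no gene past the threshold. Of 47 further family genes, 35 had a probe and 27 were tested. By limma 0 of 27 passed and 4 had an unadjusted p under 0.05, all of them lower, against 19.4% of all genes either way. The median of the 27 was -0.00061. Values were above 0 for 13 and below 0 for 14, and without scaling 20 of 27 were above 0. Groups did not overlap for 8 of 27, all of them lower, where 14.8% of all genes were lower without overlap and 12.7% higher. The smallest p values were those of Abcd3, a peroxisomal fatty acid transporter, at -0.28 ± 0.070 SE, and Abca4, a retinoid transporter, at -0.57 ± 0.15 (n = 3 per group; adjusted p = 0.14 and 0.15, limma). Abcd3 read 79.7, 70.6 and 76.7 in corn oil and 59.5, 64.0 and 63.4 after ADBAQ, and no ADBAQ array reached a corn oil array.

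Among 27 tested Nrf2 targets outside the ABC family, 5 rose and 0 fell by limma, against 0.225% and 0.0666% of all genes. An unadjusted p under 0.05 came with a higher value in 17 and a lower one in 0, against 19.4% of all genes either way. Of the 27, 25 had positive values and the median was 0.35. The largest rises past the threshold were those of Gstm1, Gstp1, Pir and Ephx1 (3.12, 2.03, 1.56 and 1.07 on the log2 scale). The glutathione transferases Gstm1 and Gstp1 form conjugates of the kind that MRPs export. Gstp1 read 50.1, 54.0 and 69.0 in corn oil and 227, 222 and 250 after ADBAQ. Gstm1 read 2.69, 3.27 and 3.28 in corn oil and 39.9, 16.0 and 29.8 after ADBAQ, lowest in ADBAQ replicate 2. Ephx1, an epoxide hydrolase, read 11.8, 10.5 and 11.8 in corn oil and 24.97, 24.5 and 21.9 after ADBAQ. Ephx1 was lowest of the ADBAQ arrays in replicate 3, as Abcc4 was, while Gstp1, Gstm1 and Pir were lowest in replicate 2.

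Of 18 known regulators of these transporters, 0 passed by limma and 3 had an unadjusted p under 0.05, against 19.4% of all genes. The median of the 18 was -0.019, with 10 negative values, which became 4 without scaling. The smallest p was that of Hif1a, the oxygen-regulated factor, at -0.32 ± 0.078 (SE, n = 3 per group; adjusted p = 0.14, limma). It read 6.05, 5.57 and 5.75 in corn oil and 4.24, 4.80 and 4.89 after ADBAQ, so that every ADBAQ array was lower. Nfe2l2, which encodes Nrf2, had a value of 0.16 ± 0.10 SE, and was chosen after its value was seen.

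A further list held 22 tested uptake carriers of organic anions, cations, bile acids, peptides and nucleosides. Of these 22, 0 passed by limma and 4 had an unadjusted p under 0.05, against 19.4% of all genes. The median of the 22 was -0.15 and 19 were below 0. Without scaling, which moved the median of all genes from -0.011 to 0.15, 10 were below 0. The basolateral anion carriers Slc22a6 and Slc22a8, which bring in substrates that the pumps export, had differences of -0.16 ± 0.065 and 0.041 ± 0.055 (SE, n = 3 per group). Slc22a6 read 302, 292 and 305 in corn oil and 257, 261 and 286 after ADBAQ, and its value was 0.00086 without scaling. Slc10a2, a bile acid carrier, and Slc29a1, a nucleoside carrier, had the smallest p values, with differences of 0.49 ± 0.15 and -0.32 ± 0.12 (adjusted p = 0.17 and 0.22, limma).

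Of 7 tested apical carriers outside the ABC family, 0 passed by limma. An unadjusted p under 0.05 was seen for 4, 2 of them higher and 2 lower, against 19.4% of all genes. Values were above 0 for 3 of the 7, and for 4 without scaling. Those with the smallest p were Slc17a3 and Slc17a1, sodium phosphate family members that carry urate and organic anions, at 0.74 ± 0.14 and 0.48 ± 0.12 (SE, n = 3 per group; adjusted p = 0.10 and 0.14, limma). Slc17a3 read 15.8, 17.1 and 17.6 in corn oil and 30.0, 22.6 and 32.4 after ADBAQ, with every ADBAQ array higher. Of 7 membrane scaffold genes, 0 passed by limma. An unadjusted p under 0.05 was seen for 4, 1 of them higher and 3 lower, against 19.4% of all genes. The anchor protein Nherf1 had a value of -0.24 ± 0.082 and Pdzk1ip1, a partner of Pdzk1, one of -0.28 ± 0.090 (adjusted p = 0.21 and 0.19, limma). Without scaling these were -0.077 and -0.11.

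**Figure D4:**
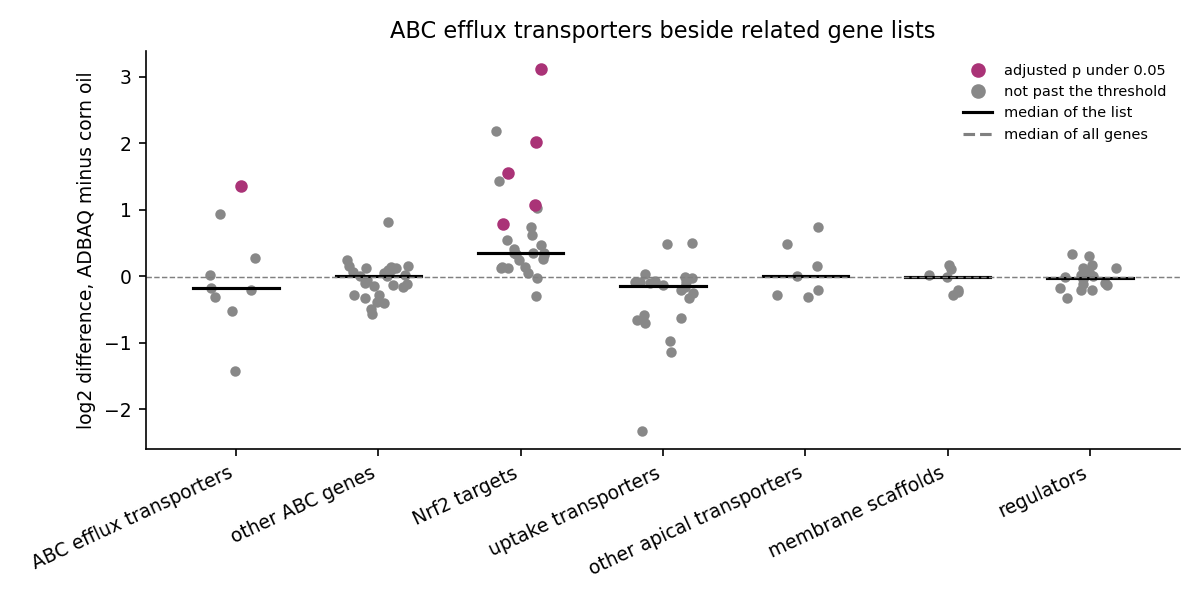
Log2 difference, ADBAQ minus corn oil, for the tested genes of the ABC efflux transporters and of the 6 lists around them. Purple marks have an adjusted p under 0.05, black bars are list medians and the dashed line is the median of all genes, -0.011. Purple marks appear for Abcc4 and for 5 Nrf2 targets, and the uptake carriers lie mostly below 0 at this scaling, though not without scaling.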

How the data were processed

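Total RNA of renal cortex from 6 rats was labelled with Cy3 and each sample hybridised alone to an Agilent rat array, per the labels' protocols. Per the file headers, scans were quantified by Agilent Feature Extraction 10.7.1.1. The deposited values are the processed signal intensity per spot, background-subtracted, on a linear scale, with median signal and background intensity and flags per spot (other units). The authors' deposited values for the whole series are a ratio. It is the processed signal divided by a constant of each array, which lies within 0.0858% of the array's 75th percentile. The scale is linear and genes were not centred. Column medians were 0.111, 0.113 and 0.112 in corn oil, then 0.113, 0.114 and 0.111 in ADBAQ. The sources used here do not say how that constant was chosen.

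After removal of 1319 control spots and of 73 probes with an outlier flag, processed signals were divided by the 75th percentile of their array and taken to log2. A probe was tested if either group had it well above background on its 3 arrays (42256 probes), and each gene was represented by its brightest such probe (12007 genes). The files give accessions, which were matched to RefSeq genes (GRCr8, symbols only): 27460 of 61657 probes matched 1 gene. The test was limma 3.58.1 (R 4.3.3; two-sided moderated test, treatment as the sole term), called at 0.05 after Benjamini-Hochberg adjustment. Other software was data.table (version 1.17.8), Python 3.11.15, matplotlib 3.10.9 and pandas 2.3.3. The labels call the replicates biological. Precision is limited by having 3 arrays in a group. The fit was tested on simulated data.

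The members and lists were chosen with earlier results of these data known. Named genes were all members; of each list, up to 4 past the threshold by size or otherwise the 2 with the smallest p; Slc22a6 and Slc22a8; and the 3 nearest to a called member. Some items under this rule are not reported here. Alternatives were other scalings, normexp background correction, other filters and probe rules, an intensity trend, the replicate number as a block and leaving out each array. Normexp used the median signal with an offset of 50. Replicate numbers showed no clear pairing of the arrays. Same-numbered deviations correlated at 0.0094, 0.16 and 0.035 across genes, and differently numbered ones at -0.16 to 0.13. With 3 arrays in a group this cannot exclude a pairing.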

Additional observations from a re-analysis of the deposited data

How the results depend on the processing

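The 9 tested members kept their sign under quantile scaling, median scaling, no scaling, normexp and the deposited table. Elsewhere Abcb1b reversed to 0.19 with the mean of probes. Without 1 array Abcb1b ran from -0.53 to 0.071 and Abcc1 from -0.0093 to 0.037, both reversed without corn oil replicate 3. Members past the threshold numbered 1 higher and 0 lower; without scaling 3 and 1, with normexp and with an intensity trend 1 and 1. Without 1 array these were 0 to 1 and 0 to 0, Abcc4 ran from 1.27 to 1.47, and its probes past the threshold numbered 0 to 4, a count added after seeing the data. Over all genes, 27 were higher and 8 lower; without scaling 1027 and 54, with normexp 67 and 78, with an intensity trend 72 and 84, without the filter 21 and 4, and without 1 array 11 to 25 and 3 to 10. With the replicate number as a block, limma called 0 higher and 0 lower genes, 0 members and 0 Abcc4 probes. In that fit 2266 genes had an unadjusted p under 0.05, and Abcc4 was 1.36 (adjusted p = 0.13). Whether the numbers pair the arrays is not settled. Slide could not be fitted as a block. The causes of these changes were not tested. Signal near background limits Abcb1a and Abcb4.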

Other observations

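Further carriers, chosen after their values were seen, also differed among the corn oil rats. Slco1a1, an organic anion uptake carrier, read 1.67, 0.801 and 4.13 in corn oil and 0.892, 0.0923 and 0.536 after ADBAQ, and its difference of -2.32 ± 1.00 (SE, n = 3 per group) did not pass limma's test (adjusted p = 0.27). Slco1a3 read 6.08, 3.26 and 10.99 in corn oil and 5.02, 1.22 and 3.38 after ADBAQ. Slc22a7 read 0.152, 0.215 and 0.813 against 0.415, 0.147 and 0.330. Over the 6 arrays these carriers were highest in corn oil replicate 3 and lowest in ADBAQ replicate 2. Abcb1a, Abcb4 and probes 1 and 3 of Abcb1b were also highest in corn oil replicate 3, but none of them was lowest in ADBAQ replicate 2. Probe 2 of Abcb1b was highest in ADBAQ replicate 2.

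The cholesterol exporter Abca1, also chosen after its values were seen, read 0.399, 0.139 and 0.150 in corn oil and 0.408, 0.399 and 0.281 after ADBAQ, so that corn oil replicate 1 alone reached the ADBAQ arrays. Its difference was 0.82 ± 0.43 (SE, n = 3 per group; adjusted p = 0.35, limma).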
